A study of Mus musculus with 12 samples.

Results

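The genes described are 10 core genes of the Notch pathway, chosen by symbol: the receptors Notch1, Notch2, Notch3 and Notch4, the ligands Jag1, Jag2 and Dll1, and the target genes Hes1, Hey1 and Heyl. All 10 were found among the 17995 genes of the table, and 3 of them (Notch4, Dll1 and Heyl) were too low to be tested in any comparison. The study asked how knockdown of the muscarinic acetylcholine receptor M5 (gene symbol Chrm5) alters cells of the testis. It measured mRNA by sequencing in C18-4 cells, a mouse line kept as spermatogonial stem cells, and in TM4 cells, a mouse line kept as Sertoli cells, each treated with shRNA against M5 (shM5) or with control shRNA (shNC), with 3 libraries per group and 12 in all.

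The 4 groups were C18-4 shNC, C18-4 shM5, TM4 shNC and TM4 shM5. All 12 libraries carried a viral shRNA construct, the controls included, and the shM5 cells received a mixture of 3 shRNAs against different positions of the gene. The labels give the strain of every library as "IRC", and the sources used here give neither the time from treatment to collection nor whether the treated cells were clones. The lines were grown in different media, TM4 in DMEM and C18-4 in DMEM/F12 with added glutamine, so that line and medium cannot be told apart. Nothing in the labels says that the 3 libraries of a group came from separate cultures, so p-values measure only the spread between these libraries, which may be technical.

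Values are RPKM, read counts scaled by gene length and by the mapped reads of the library, so levels can be set beside each other between genes as well as between libraries. The targeted gene Chrm5 was listed at 0.01 RPKM in C18-4 shNC replicate 2 and in TM4 shNC replicate 1 and at 0 in the other 10 libraries, so its knockdown could not be checked in these data. Of 14 measured germ cell markers, 3 had a mean of at least 0.5 RPKM in C18-4 cells, led by Uchl1, Id4 and Etv5, while Kit and Stra8 were at 0 in all 6 libraries. Of 13 measured Sertoli markers, 7 reached that mean in C18-4 cells and 7 in TM4 cells. Wt1, a Sertoli marker, was at 53.9 to 72.3 RPKM in C18-4 and at 0.06 to 0.15 RPKM in TM4, so the lines are called here by their names and not by a cell type. Endothelial markers summed to 7.16 to 10.3 RPKM in C18-4, mostly Flt1, and to at most 0.52 RPKM in TM4. In bulk RNA a lower share of cells with a transcript and less of it per cell cannot be told apart.

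Libraries stood apart in both lines. TM4 shNC replicate 3 lay at a distance of 0.640 and 0.642 (root mean square log2 difference over genes) from the other shNC libraries of its line and at 0.202 to 0.257 from the shM5 libraries. C18-4 shNC replicate 3 lay at 0.438 and 0.418 from the other shNC libraries of its line. For the effect of shM5, the main results that rest on these libraries are given with and without them. The log2 fold changes between the shNC groups of the lines and the makeup of the receptor and ligand pools are given with all libraries only.

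Notch receptors are single-pass membrane proteins that are cut when a Jagged or Delta ligand on a neighbouring cell binds them, which frees an intracellular part that enters the nucleus. There it joins the DNA-binding protein RBPJ and switches on genes of the Hes and Hey families, which encode transcriptional repressors. In the testis the pathway is known as a route of contact signalling between germ cells and Sertoli cells.

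The promoter sequences of the ligand pair and of the highest receptor are shown because Jag1 and Jag2 on the one hand and Notch2 on the other differed between the lines in opposite directions, and that of Hey2 because, among the other target genes, it had one of the widest line differences and holds the RBPJ core. They are the 250 bases before the transcription start as given by RefSeq on GRCm38.p6, 5′ to 3′ on the strand of the gene, and capitals mark the RBPJ core TGGGAA or its reverse complement TTCCCA.
Jag1, chr2:137116521-137116770, minus strand: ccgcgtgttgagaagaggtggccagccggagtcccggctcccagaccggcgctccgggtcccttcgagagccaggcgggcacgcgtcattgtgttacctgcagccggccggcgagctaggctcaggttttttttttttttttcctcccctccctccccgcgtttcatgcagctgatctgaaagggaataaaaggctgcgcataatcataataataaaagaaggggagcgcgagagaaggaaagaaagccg
Jag2, chr12:112929496-112929745, minus strand: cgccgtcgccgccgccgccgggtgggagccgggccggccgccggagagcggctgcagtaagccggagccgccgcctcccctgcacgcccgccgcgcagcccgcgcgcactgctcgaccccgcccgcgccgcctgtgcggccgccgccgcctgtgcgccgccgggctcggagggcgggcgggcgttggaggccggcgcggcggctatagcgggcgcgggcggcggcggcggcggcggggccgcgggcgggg
Notch2, chr3:98013288-98013537, plus strand: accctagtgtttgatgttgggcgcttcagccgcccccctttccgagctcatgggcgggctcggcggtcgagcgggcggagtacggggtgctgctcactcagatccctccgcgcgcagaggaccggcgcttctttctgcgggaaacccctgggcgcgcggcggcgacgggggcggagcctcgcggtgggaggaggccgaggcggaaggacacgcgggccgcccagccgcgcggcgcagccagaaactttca
Hey2, chr10:30842784-30843033, minus strand: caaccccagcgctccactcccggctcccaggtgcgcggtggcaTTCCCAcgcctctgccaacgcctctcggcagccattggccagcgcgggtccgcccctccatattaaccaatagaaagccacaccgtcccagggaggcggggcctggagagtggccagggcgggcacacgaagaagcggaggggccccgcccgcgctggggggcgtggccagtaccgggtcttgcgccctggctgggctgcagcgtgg

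Of the 10 genes, 7 had promoter entries, with 8 windows in all because Dll1 has 2 start sites. Hes1, Hey1 and Heyl had none, so the windows are those of receptors and ligands. The RBPJ core lay in 0 of these 8 windows, against 21.6% of 32851 mouse promoter windows of the same length, which says only that these letters are not in these 250 bases. Of the 5 other target genes Hes5 had 2 matches, Hes7 had 1 and Hey2 had 1, at position -207 from the start, while Hes6 and Nrarp had 0. Hes5 was listed at 0 in every library, and Hes7 was higher in TM4 among the shNC libraries (log2 fold change 0.84, adjusted p = 0.0407, limma). In the shM5 libraries the means of Hes7 were 0.497 RPKM in C18-4 and 0.48 RPKM in TM4. Its C18-4 mean over 6 libraries was 0.49 RPKM, so it reached the minimum mean of 0.5 RPKM for testing only through TM4. The N-box CACNAG, the letters bound by Hes proteins, was searched on both strands and lay in 3 of the 8 windows (Notch1, Notch2 and Notch3), against 36.7% of all windows. The windows differed in base composition. That of Jag2 was 87.2% G and C with 54 CpG, that of Notch2 72% with 34 CpG and that of Jag1 57.2% with 20 CpG, against a median of 52.4% and 6 CpG over all windows.

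Levels of the 10 genes followed a different order in each line. In C18-4 shNC cells Hes1 was highest, followed by Jag1, Notch2 and Jag2, whose ranges overlapped from neighbour to neighbour, then by Hey1, Notch3 and Notch1, whose ranges overlapped likewise, and then by Dll1, Notch4 and Heyl. In C18-4 shM5 cells the order was the same, with Jag1, Notch2 and Jag2 no longer overlapping. In both TM4 groups Notch2 was highest, followed by Hes1, Jag1, Notch3 and Notch1 with no overlap between neighbours, then by Jag2, Hey1 and Notch4, which overlapped, while Dll1 and Heyl were listed at 0. The plot of the 10 genes by library shows these levels.

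**Figure D1:**
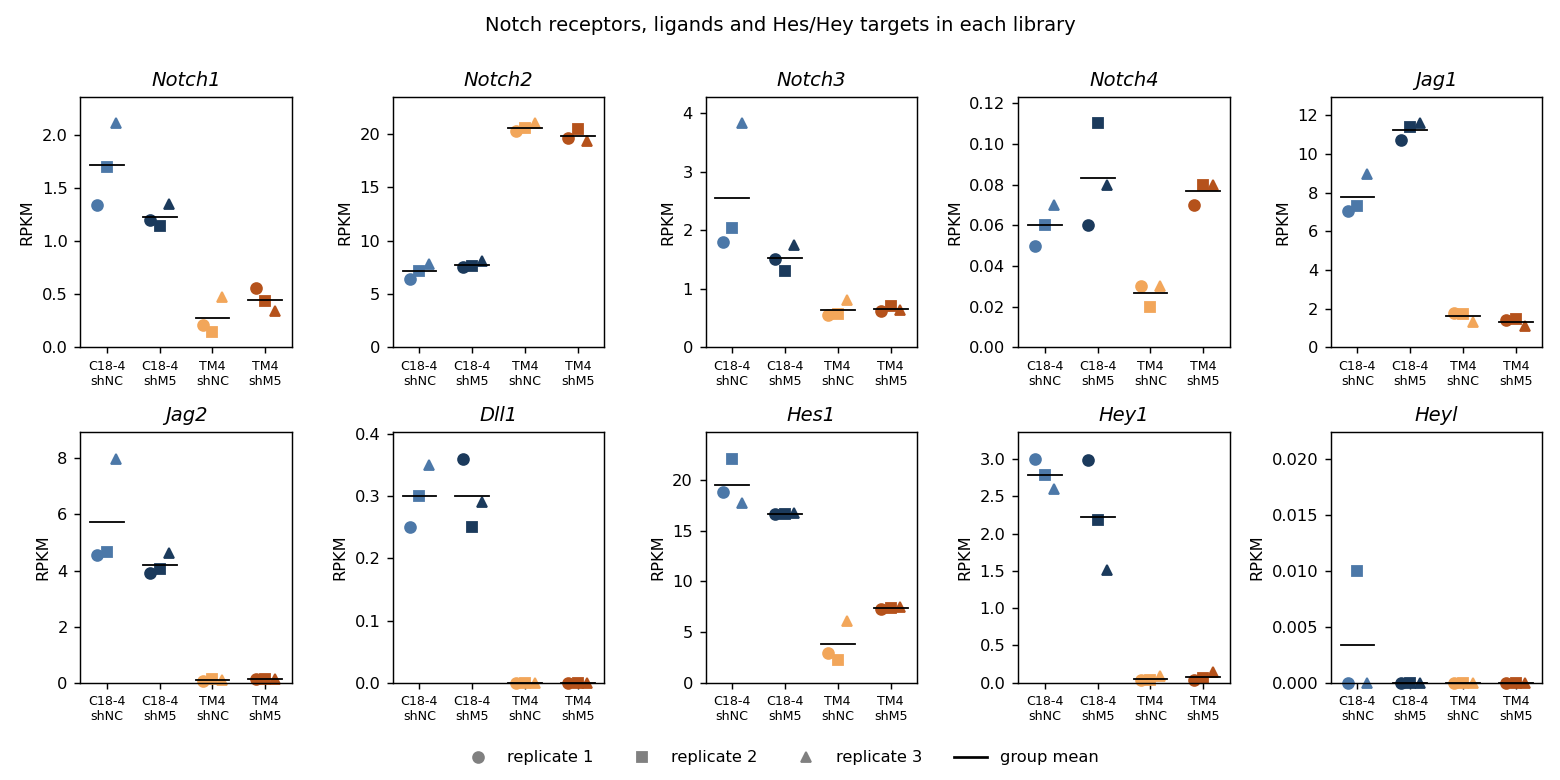
RPKM of the 10 Notch genes in each of the 12 libraries, 1 panel per gene with its own linear axis from 0; the symbol gives the replicate number, the colour the group and the line the mean of 3 libraries. Notch2 sits between 19.37 and 20.97 RPKM in TM4 and between 6.40 and 8.10 in C18-4, the order between the lines is the opposite for the other genes that were tested, and TM4 shNC replicate 3 lies apart for Hes1.

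Of the receptors, Notch2 was the main one in both lines, and it was higher in TM4 cells. It was at 6.40, 7.18 and 7.85 RPKM in the C18-4 shNC libraries and at 20.23, 20.58 and 20.97 RPKM in the TM4 shNC libraries. The groups did not overlap, and the difference was 2.87-fold (log2 fold change 1.52, SE 0.0893, adjusted p = 3.15e-08, limma). Notch1, the best-studied receptor of the family, was at 1.34, 1.70 and 2.11 RPKM in C18-4 shNC and at 0.21, 0.14 and 0.47 RPKM in TM4 shNC. All 3 TM4 libraries were below all 3 C18-4 libraries (log2 fold change -2.36, SE 0.294, adjusted p = 2.58e-05, limma). Notch3, best known from smooth muscle and pericytes, was at 1.79, 2.03 and 3.82 RPKM in C18-4 shNC and at 0.56, 0.57 and 0.80 RPKM in TM4 shNC. Again the groups did not overlap (log2 fold change -1.77, SE 0.252, adjusted p = 7.74e-05, limma), although C18-4 shNC replicate 3 was well above the other libraries of its group. Notch4, a receptor known mainly from endothelium, was at 0.05, 0.06 and 0.07 RPKM in C18-4 shNC and at 0.03, 0.02 and 0.03 RPKM in TM4 shNC, too low to be tested.

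The ligands were nearly all on the C18-4 side. Jag1 was at 7.04, 7.32 and 8.98 RPKM in C18-4 shNC and at 1.78, 1.74 and 1.29 RPKM in TM4 shNC (log2 fold change -2.21, SE 0.156, adjusted p = 1.68e-07, limma). Jag2 was at 4.54, 4.65 and 7.98 RPKM in C18-4 shNC and at 0.06, 0.12 and 0.10 RPKM in TM4 shNC (log2 fold change -4.88, SE 0.217, adjusted p = 2.55e-09, limma). Both Jagged genes were thus low or close to 0 in TM4, with no overlap. The size of the Jag2 value depends on the constant added before the log, and it ran from -5.79 with 0.01 to -2.58 with 1. Dll1, a Delta-type ligand, was at 0.25, 0.30 and 0.35 RPKM in C18-4 shNC and was listed at 0 in all 6 TM4 libraries, so no fold is given.

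The target genes were also lower in TM4. Hes1, the most abundant repressor of the family here, was at 18.81, 22.10 and 17.73 RPKM in C18-4 shNC and at 2.95, 2.29 and 6.11 RPKM in TM4 shNC. The groups did not overlap (log2 fold change -2.46, SE 0.264, adjusted p = 7.33e-06, limma), and TM4 shNC replicate 3 was the highest of its group. Hey1 was at 3.0, 2.78 and 2.59 RPKM in C18-4 shNC and at 0.03, 0.03 and 0.09 RPKM in TM4 shNC (log2 fold change -4.29, SE 0.280, adjusted p = 8.29e-08, limma). Its log2 value ran from -5.69 to -1.85 over the same range of added constants. Heyl was listed at 0.01 RPKM in C18-4 shNC replicate 2 and at 0 in the other 11 libraries.

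In all, the 7 tested genes were called (adjusted p below 0.05) between the lines, 1 higher and 6 lower in TM4, where 65.6% of the 11773 tested genes were called, 25.6% higher and 40.0% lower. All 7 also passed the cutoff of the study (adjusted p at most 0.001 and a log2 fold change of at least 1 in size), against 26.1% of all genes, and in all 7 the groups did not overlap, against 63.5%. The median of the 7 genes was -2.36 on the log2 scale and that of all tested genes -0.15, which became -0.01 after median ratio scaling. Notch1, Jag2 and Hey1, with TM4 means of 0.36, 0.117 and 0.065 RPKM over 6 libraries, passed the filter on low values only through their level in C18-4 and so had to differ, which leaves 4 genes (Notch2, Notch3, Jag1 and Hes1) above it in both lines. With the shM5 libraries of both lines in place of the shNC libraries the 7 calls and directions held, but the values moved. Jag1 was then at -3.0, Hes1 at -1.17, Notch1 at -1.30 and Notch3 at -1.10 on the log2 scale.

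The makeup of the receptor and ligand pools is given as a description of the same values, with no test between the lines. Notch2 made up 63.0% ± 5.50 (SD, n = 3) of the summed RPKM of the receptors in C18-4 shNC and 95.6% ± 1.30 (SD, n = 3) in TM4 shNC. Jag1 made up 57.0% ± 4.45 (SD, n = 3) of the ligand sum in C18-4 shNC and 94.4% ± 2.09 (SD, n = 3) in TM4 shNC. The receptors summed to 11.5 ± 2.18 RPKM in C18-4 shNC and to 21.5 ± 0.650 RPKM in TM4 shNC (SD, n = 3). The ligands summed to 13.8 ± 3.04 RPKM and to 1.70 ± 0.266 RPKM in the same groups (SD, n = 3), so ligand RPKM per receptor RPKM was 1.20 ± 0.0719 in C18-4 and 0.0791 ± 0.0144 in TM4.

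**Figure D2:**
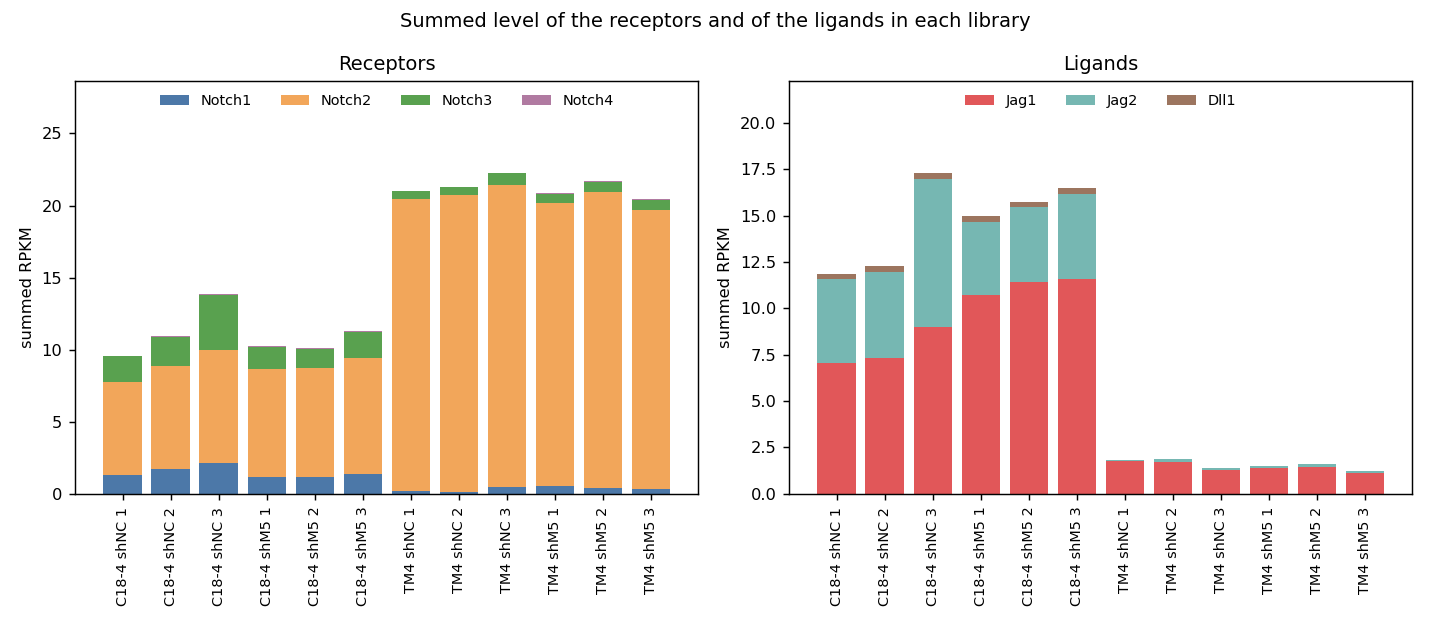
Stacked RPKM of the receptors (left) and of the ligands (right) in each of the 12 libraries, on linear axes from 0. Notch2 fills most of every TM4 receptor bar, and the ligand bars of TM4 stay under 2 RPKM while those of C18-4 reach 11.83 to 17.31.

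Of 57 other genes of the pathway, 48 were tested between the lines, where 65.6% of all 11773 tested genes were called. Of the 48, 35 were called, 14 higher and 21 lower in TM4. The median of the 48 was -0.17 on the log2 scale, near that of all genes. The 6 genes with the widest differences were Lfng, Hey2, Nrarp, Neurl1a, Dtx2 and Rbpj. Lfng, a glycosyltransferase that modifies Notch receptors, was at 26.43, 26.25 and 18.98 RPKM in C18-4 shNC and at 0.90, 1.04 and 2.28 RPKM in TM4 shNC (log2 fold change -4.09, adjusted p = 1.46e-07, limma). Hey2, a target of the same family as Hey1, was at 2.10, 2.53 and 2.92 RPKM against 0.12, 0.07 and 0.07 RPKM (-3.81, adjusted p = 5.83e-09, limma). Nrarp, a target that acts back on the nuclear complex, was at 1.74, 1.64 and 2.61 RPKM against 0.07, 0.07 and 0.11 RPKM (-3.49, adjusted p = 3.62e-08, limma). All 3 were lower in every TM4 library, and Hey2 and Nrarp, with TM4 means of 0.085 and 0.10 RPKM, passed the filter on low values only through C18-4 and so had to differ. The ubiquitin ligase genes Neurl1a and Dtx2 had log2 fold changes of -3.04 and -2.87 (adjusted p = 5.56e-09 and 2.37e-08, limma). Rbpj, the DNA-binding partner of cleaved Notch, went the other way, at 28.31, 31.18 and 48.53 RPKM in C18-4 shNC and 213.48, 216.40 and 119.38 RPKM in TM4 shNC (2.33, SE 0.258, adjusted p = 9.45e-06, limma). Rbpj has near-identical pseudogene copies that could share its reads, so its level is uncertain, and TM4 shNC replicate 3 was close to the TM4 shM5 libraries, which were at 112.21 to 113.94 RPKM.

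Calls by role are set beside the 25.6% of all genes called higher and 40.0% called lower. The genes of the nuclear complex held 9 higher and 6 lower in TM4 among 20 tested. Rbpj, whose level is uncertain, is 1 of the 9. The genes of receptor cleavage held 1 higher and 5 lower among 9, those of trafficking and turnover 2 higher and 4 lower among 10, and the glycosylation genes 1 higher and 2 lower among 4. Among the nuclear genes higher in TM4, Maml3 had a C18-4 mean of 0.428 RPKM over 6 libraries and passed the filter on low values only through TM4. Of the other target genes 1 was higher and 3 were lower among 4 tested, and Hes5 was listed at 0 in all 12 libraries. Of these 4, Hey2 and Nrarp passed the filter only through C18-4 and Hes7 only through TM4. Of 6 other ligand genes 1 was tested, Dlk2, a non-canonical ligand, at -0.92 on the log2 scale (adjusted p = 6.30e-04, limma).

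**Figure D3:**
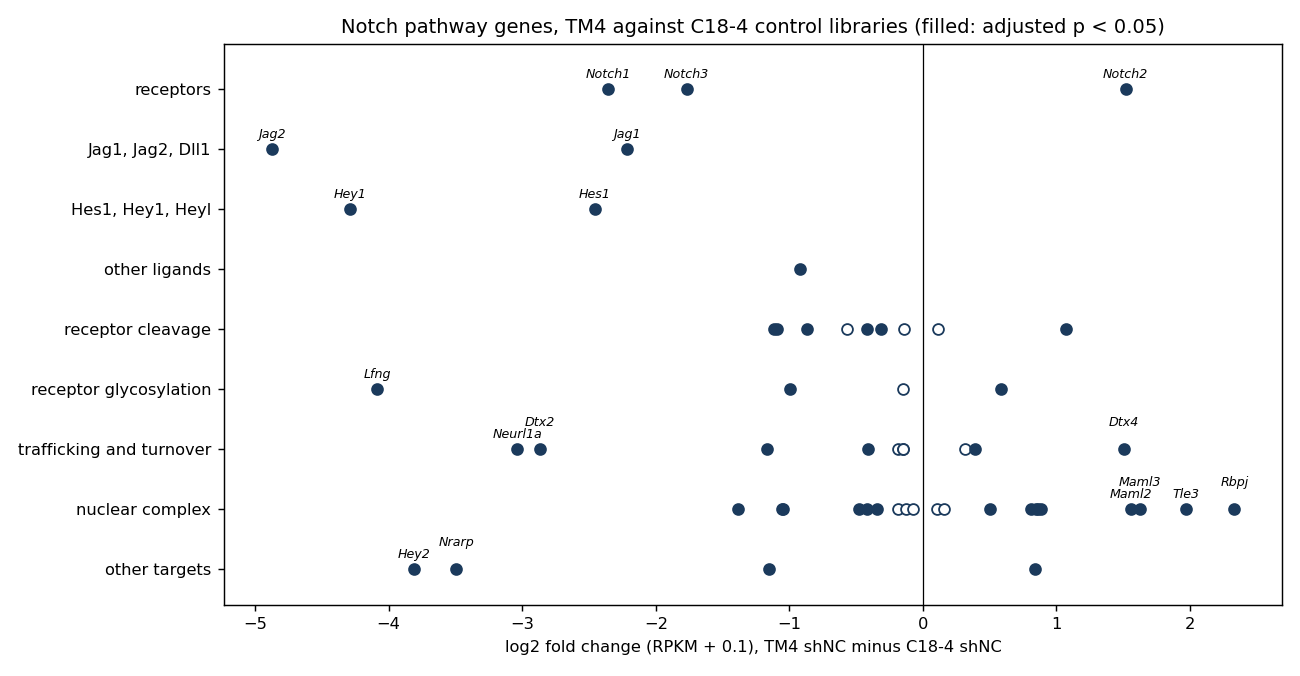
Log2 fold change of RPKM + 0.1 between the TM4 shNC and C18-4 shNC groups (3 libraries each) for the tested genes of the pathway, 1 point per gene, grouped by role; filled points passed an adjusted p of 0.05, and genes beyond 1.5 in size are named. Notch2 lies at 1.52 while Notch1, Notch3, Jag1, Jag2, Hes1 and Hey1 lie between -4.88 and -1.77. Among the other targets Hey2 lies at -3.81, Nrarp at -3.49, Hes6 at -1.16 and Hes7 at 0.84.

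The effect of shM5 was then read within each line. In C18-4 cells Jag1 was at 7.04, 7.32 and 8.98 RPKM in shNC and at 10.72, 11.41 and 11.58 RPKM in shM5. All 3 shM5 libraries were above all 3 shNC libraries, by 1.45-fold (log2 fold change 0.53, SE 0.116, 95% confidence interval 0.26 to 0.80). Over all genes this missed the threshold (adjusted p = 0.125, limma), and it passed with the replicate number as a block (adjusted p = 0.00783, limma). Jag1 also passed without shNC replicate 3 (adjusted p = 0.0254, limma) and without replicate 3 of both groups (adjusted p = 4.48e-04, limma). The setting without replicate 3 of both groups was chosen after the data were seen, and 3029 of all genes passed in it, against 68 with all 6 libraries. Leaving out any 1 library kept the log2 fold change of Jag1 between 0.47 and 0.64. The sum over 8 markers of myoid cells and fibroblasts was higher beside Jag1, at 351 to 405 RPKM in shNC and 415 to 545 RPKM in shM5. Most of this sum was Col1a1, whose groups overlapped, at 287 to 327 RPKM in shNC and 301 to 386 RPKM in shM5. Acta2 was at 15.9 to 23.7 RPKM in shNC and 34.6 to 61.8 RPKM in shM5 and Tagln at 36.0 to 48.8 RPKM and 69.4 to 93.3 RPKM, and these were the 2 of 8 whose groups did not overlap, while Myh11 was at 0.01 to 0.07 RPKM. The part of this in the Jag1 difference was not tested.

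The other ligands showed no such separation. Jag2 was at 4.54, 4.65 and 7.98 RPKM in shNC and at 3.92, 4.06 and 4.61 RPKM in shM5 (log2 fold change -0.39, SE 0.223, adjusted p = 0.565, limma). The groups overlapped, shNC replicate 3 was far above the rest, and without that library the value was -0.13. Dll1 was at 0.36, 0.25 and 0.29 RPKM in shM5, within the range of shNC except for 1 library.

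Hes1 was at 18.81, 22.10 and 17.73 RPKM in C18-4 shNC and at 16.62, 16.69 and 16.75 RPKM in shM5. The shM5 libraries lay close together and below all of shNC, with a log2 fold change of -0.22 (SE 0.0982, adjusted p = 0.439, limma). Without replicate 3 of both groups it was -0.29 and passed (adjusted p = 0.0194, limma). In that setting, chosen after the data were seen, 3029 of all genes passed, against 68 with all 6 libraries. Hey1 was at 2.99, 2.18 and 1.51 RPKM in shM5, and its groups overlapped (log2 fold change -0.36, SE 0.239, adjusted p = 0.633, limma).

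Among the receptors Notch3 was at 1.51, 1.30 and 1.75 RPKM in C18-4 shM5, below all shNC libraries (log2 fold change -0.64, SE 0.289, adjusted p = 0.449, limma). Notch1 was at 1.20, 1.14 and 1.35 RPKM in shM5 and overlapped shNC in 1 library (log2 fold change -0.43, SE 0.203, adjusted p = 0.469, limma). Without shNC replicate 3, the highest library for both genes, the values were -0.32 for Notch3 and -0.28 for Notch1. Notch2 was at 7.48, 7.59 and 8.10 RPKM in shM5 and overlapped shNC (log2 fold change 0.12, SE 0.108, adjusted p = 0.768, limma). Notch4 was at 0.06, 0.11 and 0.08 RPKM in shM5.

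Of the 7 genes tested in C18-4 cells, 2 had a positive and 5 a negative log2 fold change, with a median of -0.36 against -0.0024 over all genes. At an adjusted p below 0.05, 0 of the 7 were called by limma, where 0.586% of 11611 genes were, and 1 (Jag1) had an unadjusted p below 0.05, as did 12.3% of all genes. With the replicate block 1 of the 7 was called, where 11.9% of all genes were. The groups did not overlap in 3 of the 7 (Jag1, Notch3 and Hes1), against 18.9% of all genes. Replicate 3 stood apart in both groups, with a sum over 12 genes of the ATF4 stress response of 1637 RPKM in shNC and 1562 RPKM in shM5 against lowest sums of 1123 and 1067 RPKM. The part of this in the results was not tested.

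The makeup of the pools in C18-4 is given beside these values. Notch2 made up 73.2% ± 1.54 of the receptor sum and Jag1 71.4% ± 1.16 of the ligand sum in C18-4 shM5, and ligand per receptor was 1.49 ± 0.0509 (SD, n = 3 each). Each of these 3 measures was higher in all 3 shM5 libraries than in any shNC library (exact two-sided permutation test, p = 0.1 each, the smallest p that 3 against 3 libraries allow).

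In TM4 cells the widest difference was in Hes1. It was at 2.95, 2.29 and 6.11 RPKM in shNC and at 7.28, 7.35 and 7.44 RPKM in shM5. All shM5 libraries were above all shNC libraries, by 2.09-fold (log2 fold change 1.07, SE 0.337, 95% confidence interval 0.25 to 1.88), which missed the threshold over all genes (adjusted p = 0.192, limma). The result depended on shNC replicate 3, which was 2.33 times the mean of the other shNC libraries and from which the shM5 mean differed by 1.20 times. Without it the log2 fold change was 1.47 (adjusted p = 2.12e-05, limma), so that 1 of the 4 tested Notch genes was called, where 67.4% of all 11026 tested genes were.

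Other gene groups moved with the same library. The 12 ATF4 response genes summed to 2464 and 2481 RPKM in shNC replicates 1 and 2, to 1250 RPKM in shNC replicate 3 and to 1175 to 1200 RPKM in shM5. The 8 proliferation genes summed to 580 and 591 RPKM, to 850 RPKM and to 898 to 901 RPKM in the same order. The 8 myoid and fibroblast markers summed to 562 and 586 RPKM, to 919 RPKM and to 1016 to 1118 RPKM, and 6 of the 8 were lower in shNC replicates 1 and 2 than in the other TM4 libraries, while Myh11 stayed at or below 0.01 RPKM. The 13 Sertoli markers summed to 77.0 and 79.8 RPKM, to 40.7 RPKM and to 34.3 to 38.6 RPKM, and 3 of the 13 were higher and 2 lower in shNC replicates 1 and 2, while Nr5a1 was at 0. The part of these in the Hes1 difference was not tested.

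The receptors and Jag1 differed less in TM4. Notch2 was at 19.61, 20.47 and 19.37 RPKM in shM5 and overlapped shNC (log2 fold change -0.06, SE 0.0715, adjusted p = 0.577, limma), with a 95% confidence interval of -0.23 to 0.12. Notch3 was at 0.62, 0.70 and 0.64 RPKM in shM5 (log2 fold change 0.03, SE 0.214, adjusted p = 0.917, limma), and its sign turned with 4 alternative settings. Jag1 was at 1.40, 1.47 and 1.11 RPKM in shM5 and overlapped shNC (log2 fold change -0.25, SE 0.194, adjusted p = 0.362, limma).

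The remaining genes were too low to be tested in TM4. Notch1 was at 0.56, 0.44 and 0.34 RPKM in shM5, and shNC replicate 3 lay within that range. Notch4 was at 0.07, 0.08 and 0.08 RPKM in shM5 and at 0.02 to 0.03 RPKM in shNC, without overlap but near the lowest values the table holds. Jag2 was at 0.12, 0.15 and 0.15 RPKM and Hey1 at 0.03, 0.07 and 0.14 RPKM in shM5, overlapping shNC.

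Of the 4 genes tested in TM4 cells, 0 were called by limma and 1 (Hes1) had an unadjusted p below 0.05. Of all 11016 genes 0% were called and 26.0% had an unadjusted p below 0.05. The groups did not overlap in 1 of the 4 (Hes1), against 26.8% of all genes. Jag1 made up 90.3% ± 2.04 of the ligand sum and Notch2 94.4% ± 0.402 of the receptor sum in TM4 shM5 (SD, n = 3), with exact two-sided permutation p = 0.1 and p = 0.3 against shNC. The rest of the ligand sum was Jag2, at 0.06 to 0.15 RPKM over the TM4 libraries, too low to be tested. Ligand per receptor was 0.0697 ± 0.00705 (SD, n = 3) in TM4 shM5, with p = 0.3 by the same permutation test.

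**Figure D4:**
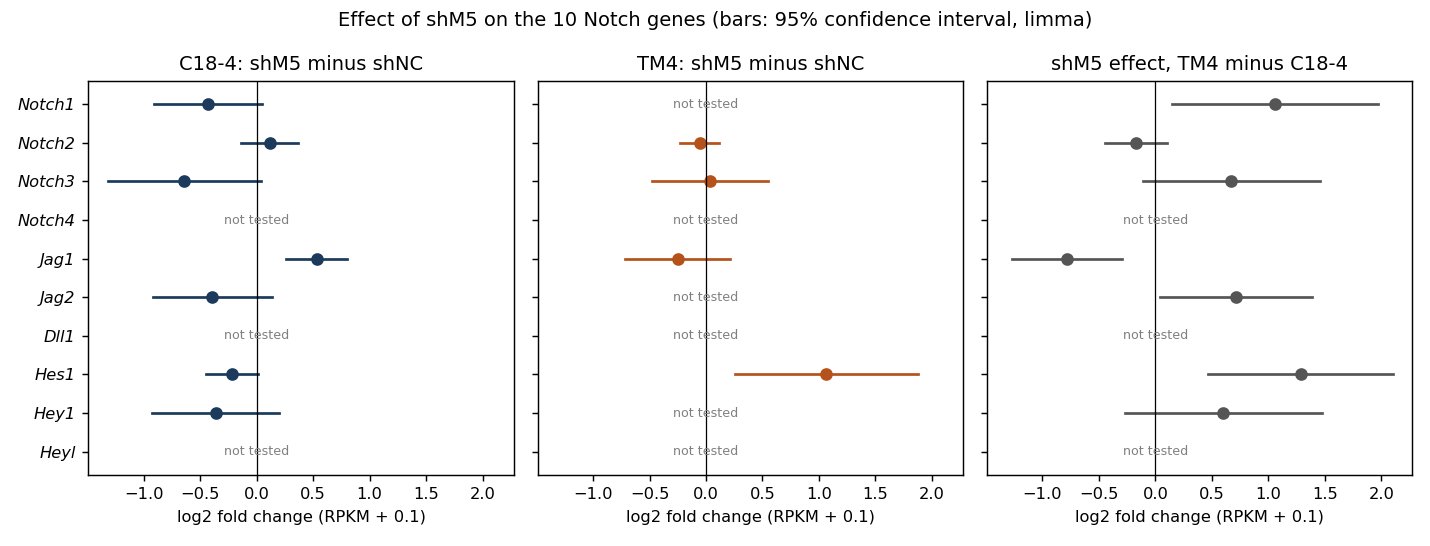
Log2 fold change of RPKM + 0.1 for each of the 10 genes, with shM5 against shNC in C18-4 (left) and TM4 (middle, 3 libraries per group) and the difference between these effects (right); points are limma estimates and bars their 95% confidence intervals. The interval of Jag1 runs from 0.26 to 0.80 in C18-4 and that of Hes1 from 0.25 to 1.88 in TM4; neither passed the threshold over all genes.

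The difference between the lines in the effect of shM5 was tested with 1 interaction term. These comparisons share their libraries with those within the lines and with the line comparison. Hes1 had the largest value among the 7 tested genes, 1.29 on the log2 scale (SE 0.373, 95% confidence interval 0.47 to 2.10, adjusted p = 0.174, limma), with shM5 below shNC in C18-4 and above it in TM4. Jag1 had the opposite sign, -0.78 (SE 0.221, 95% confidence interval -1.27 to -0.30, adjusted p = 0.166, limma). For Notch1 and Jag2 the values were 1.06 and 0.71 (adjusted p = 0.215 and 0.229, limma), and those of Notch3, Hey1 and Notch2 were 0.67, 0.60 and -0.17. Notch1, Jag2 and Hey1 entered this fit only through C18-4, and their TM4 levels, on which these values also rest, are below the filter on low values. At an adjusted p below 0.05, 0 of the 7 were called, where 0.102% of 11773 genes were. An unadjusted p below 0.05 was found in 4 of the 7 (Hes1, Jag1, Notch1 and Jag2) and in 20.9% of all genes. Without TM4 shNC replicate 3, 3 of the 7 were called (Hes1 at 1.69, Notch1 at 1.41 and Jag1 at -0.92, adjusted p = 6.04e-05, 0.00522 and 0.00365, limma), where 38.0% of all genes were. Of these 3, Notch1 was below the filter in TM4. Over the 10458 genes tested in both lines, 1.21% had, like Hes1, shM5 below shNC in C18-4 and above it in TM4 with no overlap in either line.

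Of the other pathway genes 0 of 47 were called in C18-4 cells with all 6 libraries and no block, and 11 had an unadjusted p below 0.05, where 12.3% of all genes did. With the replicate block 9 of the 47 were called, 4 higher and 5 lower in shM5, where 11.9% of all genes were. Tle3, a corepressor of the Groucho family, was at 5.02, 5.18 and 5.69 RPKM in shNC and at 3.56, 3.03 and 2.93 RPKM in shM5 (log2 fold change -0.72, adjusted p = 0.0713, with the block 0.00859, limma). Adam10, the protease that makes the first cut after ligand binding, was at 56.15, 55.93 and 61.44 RPKM in shNC and at 44.88, 43.70 and 40.88 RPKM in shM5 (-0.42, adjusted p = 0.0746, with the block 0.00762, limma). Both were lower in every shM5 library.

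Among those positive in C18-4, Fbxw7, a ubiquitin ligase that targets cleaved Notch for degradation, had a log2 fold change of 0.43 (adjusted p = 0.20, with the block 0.0387, limma). Ncstn, a subunit of gamma-secretase, which makes the final cut, was at 0.32 (adjusted p = 0.169, with the block 0.0156, limma). Tle4, another Groucho corepressor, was at 0.31 (adjusted p = 0.246, with the block 0.0416, limma). Furin, which cuts the receptor on its way to the surface, was at -0.31 (adjusted p = 0.254, with the block 0.0494, limma).

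In TM4 cells 0 of 46 other pathway genes were called and 15 had an unadjusted p below 0.05, where 26.0% of all genes did. Without shNC replicate 3, 33 were called, 19 higher and 14 lower in shM5, where 67.4% of all genes were. For the difference between the lines 0 of 48 were called and 8 had an unadjusted p below 0.05, where 20.9% of all genes did. Without TM4 shNC replicate 3, 19 were called, 14 with a higher and 5 with a lower value in TM4, where 38.0% of all genes were. The medians of the pathway genes were -0.01 in C18-4, 0.02 in TM4 and 0.01 for the difference, against -0.0024, 0.04 and 0.04 over all genes.

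The genes whose pattern was most like that of the highest receptor, ligand and target were ranked by the root mean square difference of their log2 values over the 12 libraries, after the mean of each line was subtracted, among 10457 genes. For Notch2 they were Tmem115, Elmsan1 and Utrn, at 0.0345, 0.0382 and 0.0395, against a median of 0.196 over all genes. Notch2 itself varied by only 0.0811 (root mean square) around its line means, against 0.257 for Jag1 and 0.488 for Hes1. Genes that are likewise nearly flat therefore lie close to it. For Jag1 they were Snrk, Efr3a and Arfip1, at 0.0918, 0.0938 and 0.0960, against a median of 0.313. Their group means in C18-4 were 4.21 RPKM in shNC and 5.54 RPKM in shM5 for Snrk, 24.9 and 34.1 RPKM for Efr3a, and 24.7 and 36.7 RPKM for Arfip1. For Hes1 they were Slc45a4, Zfp667 and Xrcc3, at 0.0865, 0.103 and 0.104, against a median of 0.497. In TM4 the means of Slc45a4 were 8.17 RPKM in shNC and 14.3 RPKM in shM5, those of Zfp667 0.90 and 1.87 RPKM and those of Xrcc3 0.83 and 1.72 RPKM.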

How the data were processed

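mRNA was sequenced in 12 libraries of C18-4 and TM4 cells. Per the methods of the study, oligo(dT)-enriched mRNA was sequenced on an Illumina HiSeq and reads were mapped to reference genes with SOAPaligner; the genome build is not given in the sources used here. The deposited values are RPKM that the authors computed per gene and library and wrote with 2 decimals, so no count test was run. Absolute depth is unknown. Genes with values of a few reads were kept where all values lay within 0.2 reads of whole multiples of 1 step shared by the libraries. In these 59 genes (22 to 37 per library, settings loosened after the data were seen) the value of 1 read was 0.957 to 1.02 of that step. Such a choice drops the genes that would show unlike depth, so whether depth was similar across libraries cannot be told from it. The number of libraries limits the precision.

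Columns were matched to libraries by name, with 0 columns left unused. Genes that averaged 0.5 RPKM or more in the libraries of a fit were tested with limma 3.58.1 (R 4.3.3, empirical Bayes with a trend) on log2(RPKM + 0.1), which understates changes of low genes, with Benjamini-Hochberg adjustment over all genes tested and a threshold of 0.05. Each line was fitted on its 6 libraries. The line comparison and the interaction were fitted on all 12, with the spread shared over the 4 groups. The tests were run on simulated data with independent noise, whose spread was taken without the TM4 shNC group. That check does not cover libraries that stand apart or replicates that pair. The Notch genes, the lists of pathway, marker, stress and proliferation genes and the tests were chosen with earlier results of these data known. All 10 Notch genes are named. Of the other pathway genes, the rule named at most 6 per comparison, those called with the largest log2 fold change. Outside it and after their values were seen, Dlk2 (the 1 tested gene of the other ligands), Hes5, Hes7, the genes of the closing section and the genes named in the plot by role were added. The tests of shares were added after the values were seen, as were the 2 settings that leave out replicate 3.

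The labels share replicate numbers across groups. In C18-4, deviations from the group means correlated at 0.439, 0.409 and 0.631 for the same number over genes, so the numbers were taken to pair these libraries. This pairing was inferred from these same data, and the fit with the replicate block is given where it changes a call. Numbers 1 and 2 also correlated with each other, at 0.341 and 0.345, so the values set replicate 3 apart more than they show separate pairs. Calls made only with the block rest on this reading. Alternatives covered the pseudocount, the filter, scaling, the trend, the cutoff of the study, the replicate block and leaving out each library. Promoter windows are from RefSeq (GRCm38.p6) and were matched by symbol.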

Additional observations from a re-analysis of the deposited data

Results flagged for a closer look

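In 5 of the 48 Notch and other pathway genes tested in both lines every shM5 library lay below every shNC library in C18-4 cells and above every shNC library in TM4 cells, as in 1.21% of the 10458 genes tested in both lines. The reverse pattern was found in 0 of the 48 and in 0.679% of all genes. Hes1 is described above, with a difference between the lines of 1.29 on the log2 scale (adjusted p = 0.174, limma). Dlk2, a non-canonical ligand, was at 9.22 to 9.87 RPKM in C18-4 shNC and 7.09 to 7.95 RPKM in shM5, and at 3.87 to 6.91 RPKM in TM4 shNC and 7.01 to 7.96 RPKM in shM5 (0.87, adjusted p = 0.166, limma). Furin was at 7.70 to 8.46 and 6.14 to 6.86 RPKM in C18-4, and at 14.75 to 22.61 and 22.81 to 24.55 RPKM in TM4 (0.77, adjusted p = 0.148, limma). Adam10 was at 55.93 to 61.44 and 40.88 to 44.88 RPKM in C18-4, and at 29.99 to 35.20 and 35.40 to 36.42 RPKM in TM4 (0.60, adjusted p = 0.0740, limma). Neurl1a was at 7.78 to 8.72 and 7.32 to 7.75 RPKM in C18-4, and at 0.71 to 1.08 and 1.09 to 1.35 RPKM in TM4 (0.49, adjusted p = 0.226, limma). The interaction test missed the threshold over all genes for each of the 5, and in TM4 the highest shNC value of each came from shNC replicate 3.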

How the results depend on the processing

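The 7 calls between the lines held under every alternative that could test the genes. For Notch1, Jag2 and Hey1, which passed the filter only through C18-4 and so had to differ, this cannot show a robust call. With a minimum mean of 1 RPKM 6 were tested and called. With no filter 9 were called, the added ones being among Notch4, Dll1 and Heyl, which are too low for the main filter. For the other pathway genes the cutoff of the study gave 16 calls in place of 35 among 48 tested, where 26.1% of all genes passed that cutoff. In C18-4 the 0 calls among the 7 Notch genes became 1 with quantile normalization, 1 with the replicate block and 2 without replicate 3 of both groups, with 0 to 1 when 1 library was left out, the 1 without shNC replicate 3. The 0 calls among the other pathway genes became 9 with the block, 2 in 1 fit of all 12 libraries and 13 without replicate 3 of both groups, with 0 to 2 on leaving out 1 library. In TM4 leaving out 1 library gave 0 to 1 calls among the Notch genes and 0 to 33 among the others, and for the difference between the lines 0 to 3 and 0 to 19; the high values came without TM4 shNC replicate 3. With the replicate block added to that setting the counts were 1, 36, 5 and 27. Notch3 in TM4 (0.03) turned sign with quantile normalization (-0.0145), without shNC replicate 1 (-0.0452) or 2 (-0.0344) and without shM5 replicate 2 (-0.0111), and reached 0.179 without shNC replicate 3. In TM4 libraries of the same number correlated at 0.0729, 0.0489 and 0.127, so the number was not taken as a pairing, and the replicate block alone gave 0 calls there; it changed no other call on a Notch gene. Over all genes, the C18-4 count of 68 was 4 with no filter, 0 with the cutoff of the study, 45 with no trend, 143 in 1 fit of all 12 libraries, 1386 with the block and 3029 without replicate 3, and the interaction count of 12 was 27 with a pseudocount of 1, 57 with quantile normalization, 5 with median ratio scaling, 21 with no filter, 22 with no trend, 0 with the cutoff of the study and 2 with the block. With 1 library left out these counts ran from 0 to 237 in C18-4, from 0 to 7433 in TM4 (main count 0) and from 0 to 4477 for the interaction; with the block and without TM4 shNC replicate 3 they were 7874 in TM4 and 6371 for the interaction. Without C18-4 replicate 3 the interaction count was 25, and between the lines the cutoff of the study gave 3074 in place of 7725. Unless stated, the cause was not tested. Leaving out both replicate 3 libraries of C18-4, or TM4 shNC replicate 3 with the block, was chosen after seeing the data. Depth is not known, and values near 0.01 RPKM sit at the last decimal of the table.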

Other observations

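Among the pathway genes too low to be tested between the lines, values are given for Aph1c, Mfng and Dner. Aph1c, a gamma-secretase subunit, was at 0.48 to 0.93 RPKM in C18-4 and at 0.10 to 0.17 RPKM in TM4, but it is nearly identical in sequence to Aph1b, so that reads could be split between them. Mfng, a glycosyltransferase of the Fringe family, was at 0.03 to 0.09 RPKM in C18-4 and listed at 0 in TM4, and Dner, a non-canonical ligand, was listed at 0 in C18-4 and was at 0.03 to 0.16 RPKM in TM4. Hes6, a family member that acts against Hes1 and that was tested, was lower in TM4 (log2 fold change -1.16, adjusted p = 0.0030, limma). It was at 5.73 to 7.18 RPKM in C18-4 shNC and 5.54 to 6.23 RPKM in C18-4 shM5. In TM4 it was at 1.92, 2.30 and 4.99 RPKM in shNC and at 4.21 to 5.33 RPKM in shM5, with shNC replicate 3 inside the range of shM5.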
